A study of Mus musculus with 18 samples.

Results

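The transcriptional response of mouse macrophages to interleukin-4 (IL-4) was measured after exposure of the cells to RSM-932a (RSM), a small molecule inhibitor of the enzyme that phosphorylates choline. The response was taken as the difference between the 3 libraries of IL-4-polarized macrophages, M[IL-4], and the 3 libraries of naïve macrophages, M[0], both exposed to RSM, which are 6 of the 18 libraries of the series. Of 55385 listed genes, 14979 entered the test, those for which a count of 10 or more was seen in 2 or more of the 18 libraries. The cells were bone marrow-derived macrophages of C57BL/6J female mice aged 12 weeks, grown in DMEM with supernatant of L-929 cells and harvested on day 7. They received 5 µM RSM, 250 µM hemicholinium-3 (HC3, an inhibitor of choline uptake) or 0.1% DMSO as vehicle for 24 h, and were then left naïve or given 20 ng/mL IL-4 for another 24 h. Every group held 3 libraries, described as coming from individual mice. The labels do not tie a replicate number to a mouse, so the p-values measure the spread between libraries. Both arms of the response had received RSM, so the effect of RSM on naïve cells is not part of it. Whether RSM stayed in the medium during the 24 h with IL-4 is not given in the sources used here.

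The 6 RSM libraries held 17973868 to 19522255 counts each, and 3 counts in 1 library corresponded to 0.154 to 0.167 CPM (counts scaled to the size of each library, corrected by TMM factors). The 12 macrophage markers examined, among them Adgre1, Csf1r and Cd68, all passed the count filter, with summed levels of 16770 to 18190 CPM in M[0] and 12030 to 14470 CPM in M[IL-4]. Among these 12, Cd14 was called lower with IL-4. Of 10 neutrophil and 10 lymphocyte markers, 2 each passed the filter, summing to at most 1.94 and 0.907 CPM in any RSM library, and Elane and Cd3e had a count of 0 in all 6. Of 11 stromal markers 8 passed, and their sum ran from 1377 to 2084 CPM in M[0] and from 719 to 1388 CPM in M[IL-4]. In bulk RNA, fewer cells of a type and less RNA per cell cannot be told apart.

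IL-4 binds a receptor that contains IL-4Rα and activates JAK kinases, which phosphorylate the transcription factor STAT6. STAT6 dimers enter the nucleus, bind palindromic DNA and, with factors such as IRF4, EGR2 and PPARγ, switch on the genes of alternative activation, which serve tissue repair, defence against parasitic worms and the restraint of inflammation. Choline kinase catalyses the first step by which choline becomes phosphatidylcholine, the main phospholipid of cell membranes.

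STAT dimers bind the letters TTC and GAA set a few bases apart, and STAT6 accepts a spacing of 4 bases. RefSeq promoters on GRCm38.p6, each from 250 bases before to 50 bases after a transcription start, were searched for TTCNNNNGAA, which reads the same on both strands. The letters were present in 2284 of all 32851 promoters (6.95%) and in 752 of 13463 promoters of tested genes (5.59%). They were present in 31 of 339 promoters (9.14%) of the genes called higher with IL-4 under RSM, of which 253 of 367 matched the table, and in 11 of 249 promoters (4.42%) of the genes called lower, of which 192 of 271 matched. With a spacing of 3 bases (TTCNNNGAA) the same shares were 7.08% and 10.0%, beside 6.83% for tested genes. A match is a description of the letters and not evidence of binding. The stretches below show the letters of 4 genes that rose under RSM, of Ccl17, which was called higher under vehicle only, and of Nlrp3, which fell. Capitals mark the match, and positions count from the transcription start, with -1 as the base before it.
Retnla (chr16:48842424-48842513, plus strand, match at -145 to -136): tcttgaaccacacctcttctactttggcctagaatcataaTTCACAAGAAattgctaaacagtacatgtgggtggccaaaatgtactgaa
Pdcd1lg2 (chr19:29410797-29410886, plus strand, match at -82 to -73): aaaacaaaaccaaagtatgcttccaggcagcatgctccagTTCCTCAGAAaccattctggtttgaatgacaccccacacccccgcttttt
Itgax (chr7:128129383-128129472, plus strand, match at -127 to -118): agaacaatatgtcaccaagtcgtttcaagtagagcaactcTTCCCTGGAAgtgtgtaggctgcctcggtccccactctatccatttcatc
Clec7a (chr6:129472861-129472950, minus strand, match at -131 to -122 from one of its starts): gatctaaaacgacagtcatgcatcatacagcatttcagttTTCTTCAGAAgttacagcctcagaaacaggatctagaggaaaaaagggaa
Ccl17 (chr8:94810259-94810348, plus strand, match at -154 to -145): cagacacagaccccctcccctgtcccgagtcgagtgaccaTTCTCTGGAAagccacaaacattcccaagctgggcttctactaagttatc
Nlrp3 (chr11:59542524-59542613, plus strand, match at -122 to -113): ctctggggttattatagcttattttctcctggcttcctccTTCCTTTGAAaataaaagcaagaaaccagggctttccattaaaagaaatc

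Under RSM, IL-4 moved 638 of 14979 genes (4.26%), 367 upward (2.45%) and 271 downward (1.81%), in edgeR's quasi-likelihood test. A gene was called where its false discovery rate (FDR) was below 0.05 and it moved by 1 log2 unit or more. The median log2 fold change was 1.72 among the genes called higher and -1.34 among those called lower, against 0.00139 over all genes tested. Rises of at least 4 log2 units were called for 56 genes, and falls of that size for 3. In vehicle-treated cells, IL-4 moved 997 genes (6.66%), 424 upward (2.83%) and 573 downward (3.83%). The responses shared 213 genes called higher, 58.0% of the RSM list and 50.2% of the vehicle list. They shared 137 genes called lower, 50.6% of the RSM list but 23.9% of the vehicle list. The 573 genes that fell under vehicle had a median log2 fold change of -1.42 there and -0.71 under RSM, and the 424 that rose had 1.75 there and 1.24 under RSM. Across all 14979 genes, which are not independent replicates, the fold changes under RSM and vehicle correlated with a Pearson r of 0.64.

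**Figure D1:**
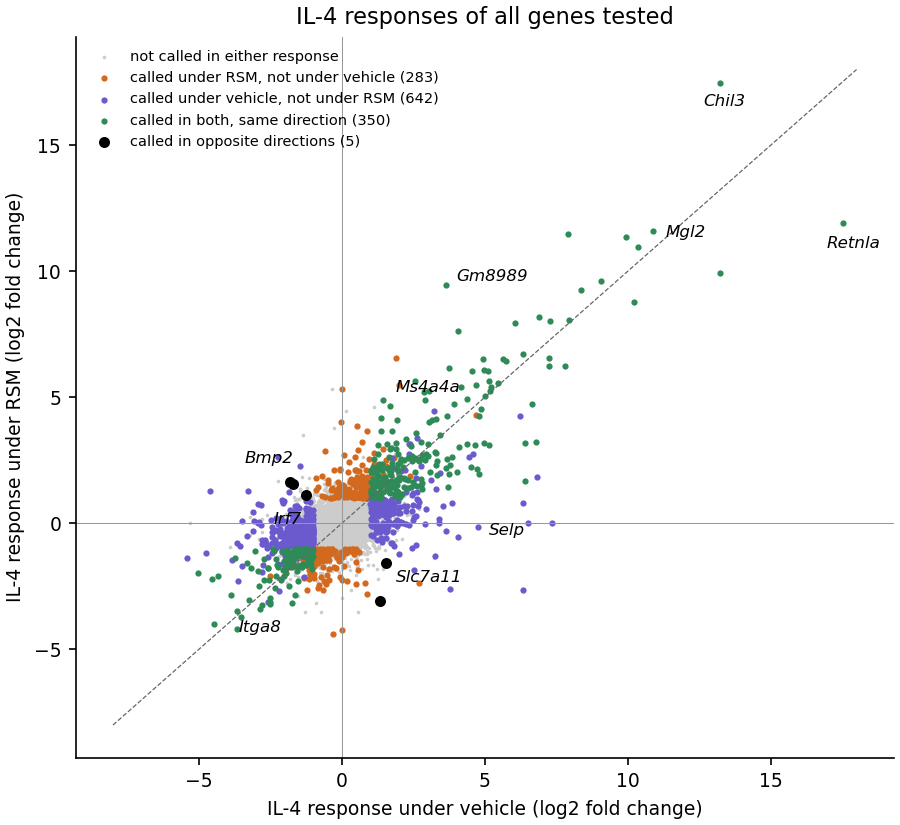
Fitted log2 fold change of every tested gene with IL-4 under vehicle (x axis) and under RSM (y axis), coloured by where it was called, with a dashed line of equal change. The 213 genes called higher and 137 called lower in both lie in the upper right and the lower left, and 3 genes called higher under RSM and lower under vehicle and 2 called the other way sit in the opposite corners.

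The direct test of whether the response differed, the interaction of RSM with IL-4, called 321 genes (2.14%). The difference, RSM minus vehicle, was positive for 183 (1.22%) and negative for 138 (0.921%). The interaction is computed from both responses, so the calls of its genes in each describe its make-up. Of the 183 positive genes, 73 had been called lower under vehicle and not under RSM, 40 higher under RSM only, and 16 higher in both. Of the 138 negative genes, 46 had been called higher under vehicle only, 18 lower under RSM only, and 12 higher in both. The remaining members of each set were mostly called in neither response, 46 of the positive and 60 of the negative genes.

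Most marker genes of alternative activation rose under RSM. Of 36 genes listed as its markers, 30 were tested, 20 were called higher and 2 lower, beside 2.45% and 1.81% of all genes. The median log2 fold change of the 30 was 3.18. The median was the same with the genes at 0 counts in a group set to the lowest fold that 3 counts allow. Under vehicle, 19 were called higher and 3 lower, beside 2.83% and 3.83% of all genes, with a median of 1.95. The interaction called 5 of the 30, all positive, beside 1.22% of all genes called positive. Cd209a, Cd209d, Cd209e and Cd209f, which encode C-type lectins, and Alox15 had at most 2 counts in any RSM library and were not tested.

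Retnla (chr16:48842551-48844461 in GRCm38, plus strand) encodes RELMα, a secreted protein that IL-4 induces in mouse macrophages. It had 0 counts in the 3 M[0] libraries under RSM and reached 20.0, 25.9 and 32.2 CPM in M[IL-4], at least 476-fold above the level of 3 counts over the M[0] group (FDR 3.36e-07, edgeR). In vehicle-treated M[IL-4], it reached 797, 1519 and 1505 CPM, again from 0 counts in all 3 M[0] libraries, or at least 21800-fold. The M[IL-4] levels under RSM and vehicle did not overlap. With every M[0] library at 0, edgeR's interaction could not separate the responses (difference -5.61, FDR 1), whereas DESeq2 gave a difference of -5.53 with an FDR of 0.0143. M[IL-4] cells given HC3 held 36.0 CPM ± 5.46 (SD, n = 3).

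Chil3 (chr3:106147554-106167564, minus strand), which encodes the chitinase-like lectin Ym1, showed the reverse order of levels. It rose from 0 counts to 878, 1614 and 1163 CPM under RSM, at least 22200-fold (FDR 4.56e-12). The vehicle libraries rose from 0, 0.0587 and 0.0538 CPM to 334, 556 and 369 CPM (FDR 2.38e-11). All 3 RSM-treated M[IL-4] libraries were above all 3 vehicle-treated ones, while the fold changes were not told apart by the interaction test (FDR 0.66), with 2 counts in the vehicle M[0] group.

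Arg1 (chr10:24915221-24927484, minus strand) encodes arginase 1, which converts arginine to ornithine. Its level went from 0.267, 0.105 and 0.308 CPM to 380, 456 and 557 CPM under RSM, a log2 fold change of 10.96 ± 0.29 (SE, FDR 5.89e-15). Under vehicle it went from at most 0.269 CPM to 193, 150 and 201 CPM, a log2 fold change of 10.37 ± 0.32 (FDR 3.43e-14). The interaction estimate was 0.59 with a 95% interval of -1.78 to 2.96, so the fold changes were not told apart at this depth. The M[IL-4] libraries of the RSM group all lay above those of the vehicle group.

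Mrc1, Mgl2 and Clec10a are lectin receptors, which bind sugars. Mrc1, the mannose receptor CD206, went from 529, 413 and 434 CPM to 2992, 2922 and 3354 CPM under RSM (log2 fold change 2.75 ± 0.12, FDR 8.97e-12), and from 433 to 475 CPM to 1500 to 1985 CPM under vehicle (1.96 ± 0.12). The interaction was 0.79 (FDR 0.00429), under the fold threshold. Mgl2, a macrophage galactose lectin, rose from 0.0533, 0.105 and 0.154 CPM to 344, 331 and 365 CPM (11.60 ± 0.37, FDR 7.14e-14). Its paralogue Clec10a rose from 4.59, 3.24 and 4.31 CPM to 124, 112 and 123 CPM under RSM and from 3.93 to 6.40 CPM to 27.3 to 43.8 CPM under vehicle. The Clec10a fold change was larger under RSM by 1.97 log2 units (95% interval 1.39 to 2.56, FDR 0.000116). Clec7a, the β-glucan receptor Dectin-1, behaved likewise, at 53.7, 65.1 and 50.4 CPM in M[0] and 395, 607 and 489 CPM in M[IL-4] under RSM, with an interaction of 1.56 (FDR 0.00127). Its M[0] level under vehicle was already 225 to 280 CPM. Clec4n, the fungal receptor Dectin-2, fell from 86.1 to 112 CPM to 18.8 to 21.9 CPM (-2.24 ± 0.24, FDR 1.55e-06).

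Ch25h, which makes 25-hydroxycholesterol, rose from 1.49, 0.941 and 1.13 CPM to 34.4, 22.3 and 33.8 CPM under RSM (log2 fold change 4.66 ± 0.21, FDR 1.05e-11). Under vehicle it rose to 3.02 to 4.65 CPM (1.69 ± 0.24), and the interaction was 2.97 (FDR 1.71e-05). The M[0] libraries of both treatments overlapped, between 0.940 and 1.49 CPM, and the M[IL-4] libraries did not. Ms4a4a, a membrane protein of macrophages, rose from 9.44, 10.0 and 7.96 CPM to 218, 304 and 285 CPM under RSM, and from 39.1, 54.2 and 39.8 CPM to 95.1, 145 and 125 CPM under vehicle (interaction 3.42, FDR 3.47e-07). It therefore started lower and ended higher under RSM. Pdcd1lg2, the PD-1 ligand PD-L2, rose from 0 counts to 17.0, 22.1 and 18.1 CPM, at least 349-fold, and its M[IL-4] levels overlapped the 15.8 to 22.7 CPM under vehicle.

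A further set rose under RSM from, or to, levels below those of vehicle. Itgax, the integrin CD11c, went from 2.88, 2.20 and 1.39 CPM to 87.0, 99.7 and 84.0 CPM (log2 fold change 5.39 ± 0.18, FDR 1.01e-13), whereas the vehicle libraries went from 57.2 to 63.0 CPM to 1021 to 1273 CPM (4.18 ± 0.14). Its fold change was the larger one under RSM (interaction 1.20, FDR 0.00204, but 0.97 and under the fold threshold without RSM M[0] replicate 3), while every RSM-treated M[IL-4] library stayed below every vehicle-treated one. Flt1, a VEGF receptor, rose to 26.1, 36.4 and 39.3 CPM under RSM and to 153 to 166 CPM under vehicle. Dcstamp, needed for macrophage fusion, rose from 0.320, 0.366 and 0.103 CPM to 2.70, 2.80 and 2.02 CPM (3.23 ± 0.60, FDR 0.000737) and stood at 48.9 to 116 CPM in vehicle-treated M[IL-4]. Mmp12, macrophage elastase, rose from 177 to 187 CPM to 399 to 500 CPM (1.27 ± 0.15, FDR 4e-06), against 2109 to 2926 CPM in vehicle-treated M[IL-4]. Igf1, a growth factor of repair, rose from 428 to 486 CPM to 1179 to 1460 CPM (1.52 ± 0.09, FDR 2.8e-10).

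**Figure D2:**
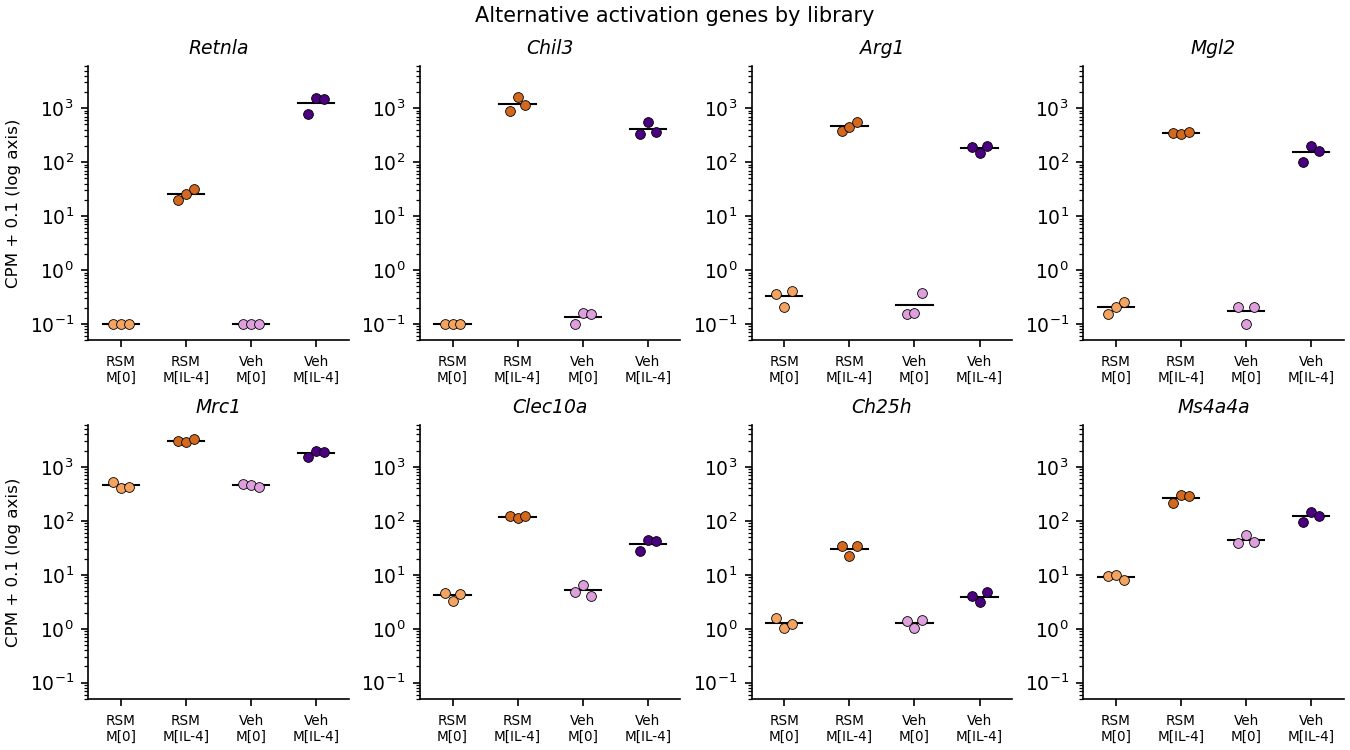
Levels of 8 effector genes in each library of RSM M[0], RSM M[IL-4], vehicle M[0] and vehicle M[IL-4], as CPM + 0.1 on a log axis, with points for libraries and a bar for the mean. Retnla is lower in RSM than in vehicle M[IL-4] (20.0 to 32.2 against 797 to 1519 CPM), whereas Chil3, Arg1, Mrc1, Clec10a, Ch25h and Ms4a4a are higher.

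Among 24 genes of the IL-4 receptor and STAT6 pathway, 3 were called higher and 1 lower under RSM, beside 2.45% and 1.81% of all genes. The list's median log2 fold change was 0.154. The 3 higher calls were the feedback inhibitors Socs1 and Cish and the decoy receptor Il13ra2. Socs1 rose from 1.81, 1.05 and 1.80 CPM to 57.8, 30.4 and 37.4 CPM (log2 fold change 4.75 ± 0.29, FDR 5.59e-10), all above the 20.0 to 26.3 CPM of vehicle-treated M[IL-4]. Cish rose from 0.427, 0.732 and 0.924 CPM to 6.52, 5.71 and 6.76 CPM (3.17 ± 0.22), less than under vehicle, where it reached 9.53 to 10.5 CPM (interaction -1.80, FDR 0.00386). Socs2, another family member and chosen after its values were seen, had 4.57 to 5.87 CPM in M[0] and 4.89 to 6.81 CPM in M[IL-4] under RSM but rose under vehicle (interaction -1.80, FDR 0.000519). Il13ra1, which pairs with IL-4Rα, fell from 25.2 to 27.2 CPM to 11.1 to 11.7 CPM (-1.20 ± 0.11, FDR 1.96e-07). The receptor chain Il4ra itself was at 155, 161 and 165 CPM in M[0] and 152, 138 and 148 CPM in M[IL-4] under RSM (FDR 0.192). Under vehicle it went from 104 to 126 CPM to 61.4 to 68.6 CPM, a log2 fold change of -0.85 (FDR 1.67e-08), and the interaction was 0.72 (FDR 6.2e-05), both under the fold threshold. Stat6 was at 300 to 325 CPM in M[0] and 301 to 319 CPM in M[IL-4] (log2 fold change -0.01 ± 0.05, FDR 0.908).

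Of 22 regulators of alternative activation, 6 were called higher and 1 lower, beside 2.45% and 1.81% of all genes, with a median of 0.0376. Egr2, a zinc finger factor, rose from 3.79, 3.56 and 4.83 CPM to 71.8, 76.3 and 66.0 CPM (log2 fold change 4.13 ± 0.12, FDR 1.33e-14). Vehicle-treated cells reached 213 to 262 CPM, from 21.3 to 25.0 CPM. Irf4, a partner of STAT6, rose from 2.13, 1.52 and 1.23 CPM to 10.8, 16.1 and 12.5 CPM (3.01 ± 0.21, FDR 4.51e-09), against 62.3 to 83.1 CPM under vehicle. The Irf4 interaction was -1.09 (FDR 0.0236), and was no longer called when any of 5 libraries was left out (-0.84 without RSM M[0] replicate 1, FDR 0.142, and between -0.95 and -1.06 without RSM M[IL-4] replicate 1, vehicle M[0] replicate 1 or 3, or vehicle M[IL-4] replicate 2).

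Klf4, a zinc finger factor that cooperates with STAT6, was at 96.7, 87.7 and 99.0 CPM in M[0] and 192, 165 and 182 CPM in M[IL-4] under RSM, a log2 fold change of 0.93 ± 0.08 (FDR 7.7e-08) that lay just under the fold threshold. Under vehicle it rose from 10.3 to 12.7 CPM to 74.4 to 76.4 CPM (2.68 ± 0.09), and the interaction was -1.75 (FDR 8.35e-08). All RSM-treated M[0] libraries were above all vehicle-treated M[IL-4] libraries. Bhlhe40, a basic helix-loop-helix repressor, rose under RSM by 1.52 ± 0.15 log2 units, less than under vehicle (interaction -1.25, FDR 0.000628). The lipid-sensing receptor Pparg rose from 26.4 to 35.0 CPM to 85.7 to 94.0 CPM (1.50 ± 0.11, FDR 9.54e-09). Egr3 fell by 1.85 log2 units (FDR 0.000313). Ppargc1b, a coactivator that promotes oxidative metabolism and was chosen after its values were seen, had 1.62 to 2.31 CPM in M[0] and 2.45 to 2.85 CPM in M[IL-4] under RSM (FDR 0.149) but rose from 1.23 to 1.99 CPM to 7.73 to 9.93 CPM under vehicle (interaction -1.96, FDR 0.00029).

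Of 32 tested chemokines and chemokine receptors, 5 were called higher and 6 lower under RSM, beside 2.45% and 1.81% of all genes. The list's median was -0.139. The monocyte-attracting CC chemokines encoded in 1 cluster on chromosome 11 rose. Ccl7 went from 17.4, 10.6 and 11.2 CPM to 255, 171 and 255 CPM (log2 fold change 4.11 ± 0.20, FDR 2.71e-11), against 55.0 to 75.6 CPM in vehicle-treated M[IL-4] (interaction 2.17, FDR 3.59e-05). Ccl2 went from 11.3, 6.07 and 8.06 CPM to 87.5, 55.7 and 86.6 CPM (3.18 ± 0.20), also more than under vehicle (interaction 1.27, FDR 0.00466). Ccl12 and Ccl8 rose too, to at most 4.15 and 2.34 CPM.

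The chemokines that attract type 2 T cells and eosinophils were scarce under RSM. Ccl22 had 0 counts in M[0] and 0.306, 0.754 and 0.319 CPM in M[IL-4], at least 8.36-fold (FDR 0.00329), beside 4.52 to 6.68 CPM in vehicle-treated M[IL-4]. Ccl17 had 1 count over the 3 M[0] libraries and 2 over the 3 M[IL-4] libraries, a ratio of 1.93 with a 95% counting interval of 0.1 to 114 (FDR 0.822), whereas under vehicle it was called higher (log2 fold change 3.86, FDR 0.00295), at 0.392 to 0.755 CPM. Ccl24 was at 0.0533, 0.157 and 0.103 CPM in M[0] and 0, 0.161 and 0.0532 CPM in M[IL-4] under RSM (FDR 0.859), against 0.646 to 2.26 CPM in vehicle-treated M[IL-4]. The interactions of Ccl17 and Ccl24 were not called (FDR 0.58 and 0.115). That of Ccl24 was called under the replicate block (-4.58, FDR 0.032), under that block within each polarization, added after the data were seen (-4.78, FDR 0.0119), with no count filter (-4.60, FDR 0.016) and without vehicle M[0] replicate 3 (FDR 0.0443). Ccl3, an inflammatory chemokine, fell from 23.8 to 25.1 CPM to 10.7 to 11.9 CPM (-1.10 ± 0.12, FDR 1.65e-06).

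Of 19 tested genes of antigen presentation and costimulation, 6 were called higher and 1 lower under RSM, beside 2.45% and 1.81% of all genes. The list's median was 0.394. Cd74 and 4 class II genes rose, and Ciita, Cd86 and others were not called. Cd74, the invariant chain, went from 51.5, 57.0 and 54.6 CPM to 198, 259 and 227 CPM (log2 fold change 2.07 ± 0.20, FDR 4.58e-07). Vehicle libraries went from 402 to 650 CPM to 1538 to 2333 CPM (1.95 ± 0.20), a fold change that did not differ beyond its error (interaction 0.12, 95% interval -0.46 to 0.70, FDR 0.869). Every RSM-treated M[IL-4] library was below every vehicle-treated M[0] library. H2-Aa, H2-Ab1 and H2-Eb1 rose by 2.11, 1.69 and 2.16 log2 units, to 21.1 to 37.1, 20.7 to 28.4 and 10.3 to 16.6 CPM. Ciita, the class II transactivator, was at 1.23, 1.31 and 0.821 CPM in M[0] and 1.07, 3.01 and 1.38 CPM in M[IL-4] (FDR 0.34). Cd274, which encodes PD-L1, rose from 110 to 138 CPM to 242 to 326 CPM (1.22 ± 0.15, FDR 8.7e-06), with antisense genes over 14% of its exons.

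Costimulatory genes went their own ways. Icosl, the ligand of ICOS, fell from 7.90 to 10.6 CPM to 1.94 to 2.91 CPM (log2 fold change -1.91 ± 0.21, FDR 1.55e-06). Cd86, a ligand of CD28 chosen after its values were seen, held 71.2, 96.3 and 75.4 CPM in M[0] and 60.2, 110 and 76.0 CPM in M[IL-4] under RSM (0.02 ± 0.24, FDR 0.973). It fell under vehicle from 10.5 to 15.1 CPM to 2.15 to 4.64 CPM (-1.82 ± 0.35), and the interaction was 1.84 (FDR 0.0102).

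**Figure D3:**
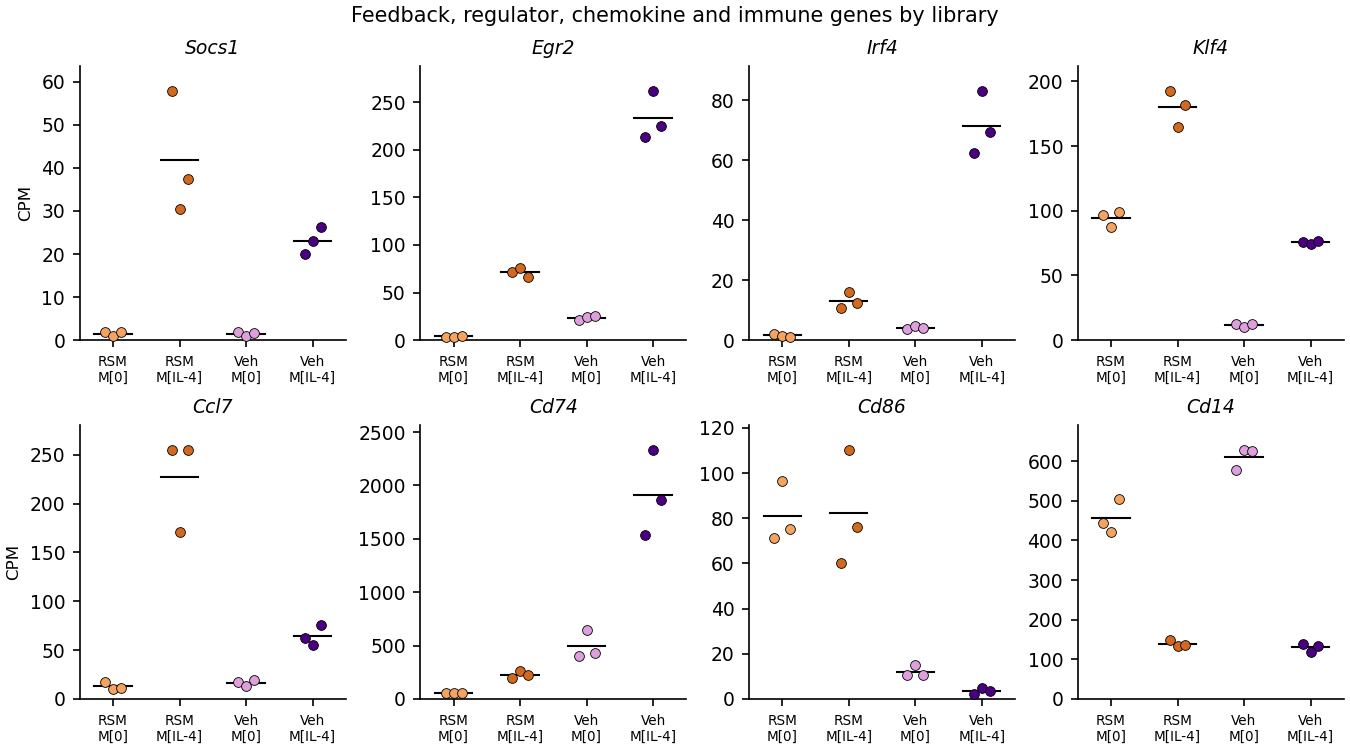
Levels in CPM, on linear axes, of 8 genes with different roles in each library of RSM M[0], RSM M[IL-4], vehicle M[0] and vehicle M[IL-4], with points for libraries and a bar for the mean. Egr2, Irf4 and Cd74 rise in both treatments but to lower levels under RSM, Socs1 and Ccl7 reach higher levels under RSM, and Cd86 falls under vehicle only.

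Slc7a2, the cationic amino acid transporter CAT2, rose from 11.5, 8.42 and 8.52 CPM to 268, 304 and 308 CPM (log2 fold change 4.95 ± 0.17, FDR 1.48e-13), below the 315 to 358 CPM of vehicle-treated M[IL-4], and it was the only call among 22 genes of arginine and polyamine metabolism, where Arg1 was not listed. Odc1, which makes putrescine, was at 112 to 135 CPM in M[0] and 121 to 136 CPM in M[IL-4] (FDR 0.531). Of 27 genes of choline and phospholipid synthesis, 2 were called higher and 1 lower, with a median of -0.0427. This share and that of the 22 genes above are to be read beside the 4.26% called over all genes. The lower call, Chdh, which oxidizes choline (-1.32 ± 0.35, FDR 0.0176), was lost with no count filter and without RSM M[0] replicate 2 or 3 or RSM M[IL-4] replicate 2 or 3. Pla2g15, a lysosomal phospholipase, was called higher at 1.04, and was under the fold threshold without RSM M[IL-4] replicate 2 (0.96) and with library size only (0.98). Lpcat1, which re-acylates lysophosphatidylcholine, rose from 29.6 to 32.2 CPM to 60.9 to 66.5 CPM (1.07 ± 0.07, FDR 8.21e-10). Chka, the choline kinase whose activity RSM inhibits, had 26.9, 21.7 and 22.3 CPM in M[0] and 22.9, 22.4 and 23.6 CPM in M[IL-4] (-0.04 ± 0.09, FDR 0.834), levels that overlapped those of vehicle. The choline transporter Slc44a1 was at 112 to 124 CPM in M[0] and 63.8 to 83.5 CPM in M[IL-4] under RSM (-0.70 ± 0.10, FDR 3.18e-05), without reaching the fold threshold.

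Sterol and fatty acid synthesis had no call under RSM among 24 and 14 tested genes, in either edgeR or DESeq2. Over all genes tested edgeR called 4.26%, a share at which lists of this size hold few calls or none. At an unadjusted p under 0.05, 2 sterol genes were higher and 6 lower, and 1 fatty acid gene was higher and 7 lower. Their median log2 fold changes were -0.109 and -0.363 under RSM and 0.527 and 0.218 under vehicle. The interaction called 5 of the 24 sterol genes, all negative, and 2 of the 14 fatty acid genes, both negative. Over all genes tested it called 0.921% negative. Without RSM M[0] replicate 1 or RSM M[IL-4] replicate 2 the interaction called 1 fatty acid gene, and without RSM M[IL-4] replicate 1 it called 3. Under RSM, 1 fatty acid gene was called lower without M[0] replicate 2, M[IL-4] replicate 1 or M[IL-4] replicate 3. The cholesterol exporter Abcg1, a target of LXR, rose from 86.9 to 118 CPM to 207 to 267 CPM (1.21 ± 0.13, FDR 1.45e-06).

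The integrated stress response is a program that ATF4 drives when amino acids are scarce or unfolded proteins build up. Of its 33 tested genes, 0 were called higher and 1 lower under RSM by edgeR and by DESeq2 (2 higher and 8 lower at an unadjusted p under 0.05), beside 4.26% of all genes called in either direction, whereas 9 were called higher and 1 lower under vehicle. The interaction called 8 of the 33, all negative, beside 0.921% of all genes called negative. Asns, asparagine synthetase, had 188, 170 and 166 CPM in M[0] and 166, 159 and 164 CPM in M[IL-4] under RSM (log2 fold change -0.10 ± 0.09, FDR 0.564), but rose from 27.1 to 36.8 CPM to 66.9 to 85.7 CPM under vehicle (interaction -1.39, FDR 3.15e-06). Phgdh, the first enzyme of serine synthesis, had 89.4 to 99.2 CPM in M[0] and 89.8 to 107 CPM in M[IL-4] under RSM, and its interaction was -1.80 (FDR 4.03e-05), with 84.3% of its transcript shared with the near-identical copy Gm7901. Both were chosen after their values were seen. Atf4 held 487 to 535 CPM in M[0] and 499 to 520 CPM in M[IL-4] (FDR 0.915), Ddit3 110 to 136 CPM over both (FDR 0.951), and Trib3 281 to 350 CPM over both (FDR 0.219). In vehicle-treated cells the same genes held at most 244, 24.4 and 7.78 CPM in any library.

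Slc7a11, the cystine transporter xCT and a target of ATF4, was the member called lower. It fell from 169, 200 and 163 CPM to 54.2, 63.9 and 58.4 CPM under RSM (log2 fold change -1.59 ± 0.21, FDR 1.97e-05) and rose from 4.03 to 5.87 CPM to 11.0 to 17.2 CPM under vehicle (1.53 ± 0.29, FDR 0.000464). The interaction was -3.12 (95% interval -3.87 to -2.37, FDR 1.71e-05), and every RSM library remained above every vehicle library. Among 25 chaperones and degradation factors of the endoplasmic reticulum, 1 was called higher and 1 lower, beside 4.26% of all genes called in either direction. The lower call, Derl3, a factor of protein degradation (-1.71 ± 0.56, FDR 0.0469), was lost with DESeq2 (FDR 0.097), under the replicate block (FDR 0.0533), in both fits to fewer groups, with no count filter and without any 1 of the 6 RSM libraries. Pdia4, a protein disulfide isomerase, rose from 136, 134 and 123 CPM to 405, 393 and 442 CPM (1.66 ± 0.08, FDR 2.86e-11).

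Among 25 glycolytic genes 1 was called, Aldoc, an aldolase, which fell from 25.1, 34.2 and 28.2 CPM to 8.15, 14.4 and 9.79 CPM (-1.44 ± 0.17, FDR 3.82e-06). The list's median was -0.272, against 0.285 under vehicle. At an unadjusted p under 0.05, 5 of the 25 were higher and 14 lower under RSM. The shares called in this list and in those that follow in this paragraph are to be read beside the 4.26% called over all genes. None of 14 mitochondrially encoded and 74 nuclear respiratory chain genes was called by edgeR or DESeq2, with medians of 0.12 and 0.134 (0 and 17 at an unadjusted p under 0.05, all higher). Of 35 replication and 23 mitosis genes none was called under RSM by either tool (3 higher and 8 lower, and 0 higher and 12 lower, at an unadjusted p under 0.05), and 2 of the 23 mitosis genes had a fold change above 0, with a median of -0.472 against 0.392 under vehicle. The interaction called 2 of the 23 mitosis genes, both negative, beside 0.921% of all genes called negative. That count of 2 ran from 0 without RSM M[0] replicate 1 to 10 without RSM M[0] replicate 2. It was 7 without RSM M[IL-4] replicate 1 and 5 without vehicle M[0] replicate 1.

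Inflammatory genes were called in the downward direction. Of 19 tested cytokines, sensors and mediators, 7 were called lower and 0 higher under RSM by edgeR and by DESeq2. Over all genes edgeR called 1.81% lower and 2.45% higher. At an unadjusted p under 0.05, 5 of the 19 were higher and 8 lower, and the median was -0.224. Under vehicle 5 were called lower, beside 3.83% of all genes. Cd14, the co-receptor for lipopolysaccharide, fell from 444, 421 and 505 CPM to 149, 133 and 135 CPM (log2 fold change -1.71 ± 0.09, FDR 5.17e-11). Vehicle libraries fell from 577 to 628 CPM to 119 to 138 CPM (-2.23 ± 0.09), with an interaction of 0.52 (FDR 0.00952). Tlr2, a receptor for bacterial lipoproteins, fell from 122 to 138 CPM to 37.7 to 52.6 CPM (-1.55 ± 0.15, FDR 2.84e-07). Nlrp3, the inflammasome sensor, fell from 65.7, 62.6 and 65.6 CPM to 34.5, 29.4 and 32.1 CPM, a log2 fold change of -1.01 ± 0.07 (FDR 5.56e-09) that lay at the fold threshold and was -0.96 without RSM M[IL-4] replicate 2. Il1a fell from 1.18 to 1.55 CPM to 0.160 to 0.458 CPM (-2.29 ± 0.55, FDR 0.00638), and Fpr2, a formyl peptide receptor, from 38 to 2 counts over 3 libraries each, a ratio of 0.0508 with a 95% counting interval of 0.00593 to 0.196.

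Interferon-stimulated genes lay higher with IL-4 under RSM and lower under vehicle, and this rested partly on 1 library. All 25 tested had a fold change above 0 under RSM, with a median log2 fold change of 0.707. Of these, 2 were called, Irf7 and Usp18, beside 2.45% of all genes called higher. Under vehicle 6 were called lower and 0 higher, beside 3.83% and 2.83% of all genes, with a median of -0.713. The interaction called 10, all positive, beside 1.22% of all genes called positive. Irf7, a master regulator of the interferon response, had 11.4, 15.3 and 10.5 CPM in M[0] and 13.1, 21.9 and 46.3 CPM in M[IL-4] under RSM (1.12 ± 0.32, FDR 0.021), so the third M[IL-4] library stood above the others and the ranges overlapped. Without that library the Irf7 fold change was 0.49 (FDR 0.257), the list median 0.182, the calls under RSM 0 and those of the interaction 5. There were also 0 calls under RSM without M[0] replicate 1 or 3, and 7 without M[IL-4] replicate 1, where the interaction called 16. Under vehicle, Irf7 fell from 13.4, 23.7 and 18.7 CPM to 7.21, 6.39 and 10.0 CPM (-1.24 ± 0.34, FDR 0.00854).

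Of 32 genes of matrix, matrix proteases and integrins, 2 were called higher and 3 lower under RSM, beside 2.45% and 1.81% of all genes. The list's median was -0.21. Mmp13, a collagenase, rose from 80.3, 76.8 and 77.3 CPM to 479, 475 and 518 CPM (log2 fold change 2.65 ± 0.08, FDR 4.76e-14), beside 59.5 to 74.0 CPM in vehicle-treated M[IL-4]. Its interaction was not called in the main fit. It was called at the fold threshold in some edgeR fits that left out 1 library. The difference was 1.00 (FDR 7.12e-05) without vehicle M[0] replicate 2 and 1.07 (FDR 8.52e-06) without vehicle M[IL-4] replicate 2. That difference is smaller than the rise under RSM, so Mmp13 rose under vehicle as well. Itgb3, the β3 integrin of macrophages and osteoclasts, rose from 18.3, 22.5 and 18.7 CPM to 103, 131 and 114 CPM (2.54 ± 0.19). Mmp8, a neutrophil-type collagenase, fell from 43.4 to 54.4 CPM to 20.1 to 23.4 CPM, and Itgal, the integrin chain of LFA-1, from 94.7 to 124 CPM to 31.5 to 47.0 CPM. The stromal markers moved with these, with 7 of the 8 tested below 0, overlapping summed levels (1377 to 2084 CPM in M[0], 719 to 1388 CPM in M[IL-4]), and Lum at 0 counts. Their part in the result was not tested. Pecam1, which macrophages also express, was the stromal marker called higher, from 0.320, 0.418 and 0.154 CPM to 5.60, 6.57 and 4.26 CPM (4.18 ± 0.39, FDR 2.37e-07).

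Of 14 genes of iron and heme handling, 1 was called higher and 1 lower under RSM, beside 2.45% and 1.81% of all genes. Their median log2 fold change was -0.387 (1 higher and 8 lower at an unadjusted p under 0.05). Tfrc, the transferrin receptor, rose from 202, 154 and 164 CPM to 582, 537 and 598 CPM (log2 fold change 1.72 ± 0.14, FDR 3.03e-08). Slc40a1, the iron exporter ferroportin, fell from 130, 149 and 115 CPM to 32.5, 29.5 and 32.0 CPM (-2.07 ± 0.11, FDR 1.62e-10). Its fall under vehicle was -2.02 ± 0.11, and the difference of -0.05 had a 95% interval of -0.37 to 0.27. Among 28 lysosomal genes 1 was called (17 were higher and 3 lower at an unadjusted p under 0.05), beside 4.26% of all genes. It was Atp6v0a1, a subunit of the vacuolar proton pump, which rose from 279, 297 and 307 CPM to 966, 837 and 924 CPM (1.63 ± 0.06, FDR 1.07e-12).

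**Figure D4:**
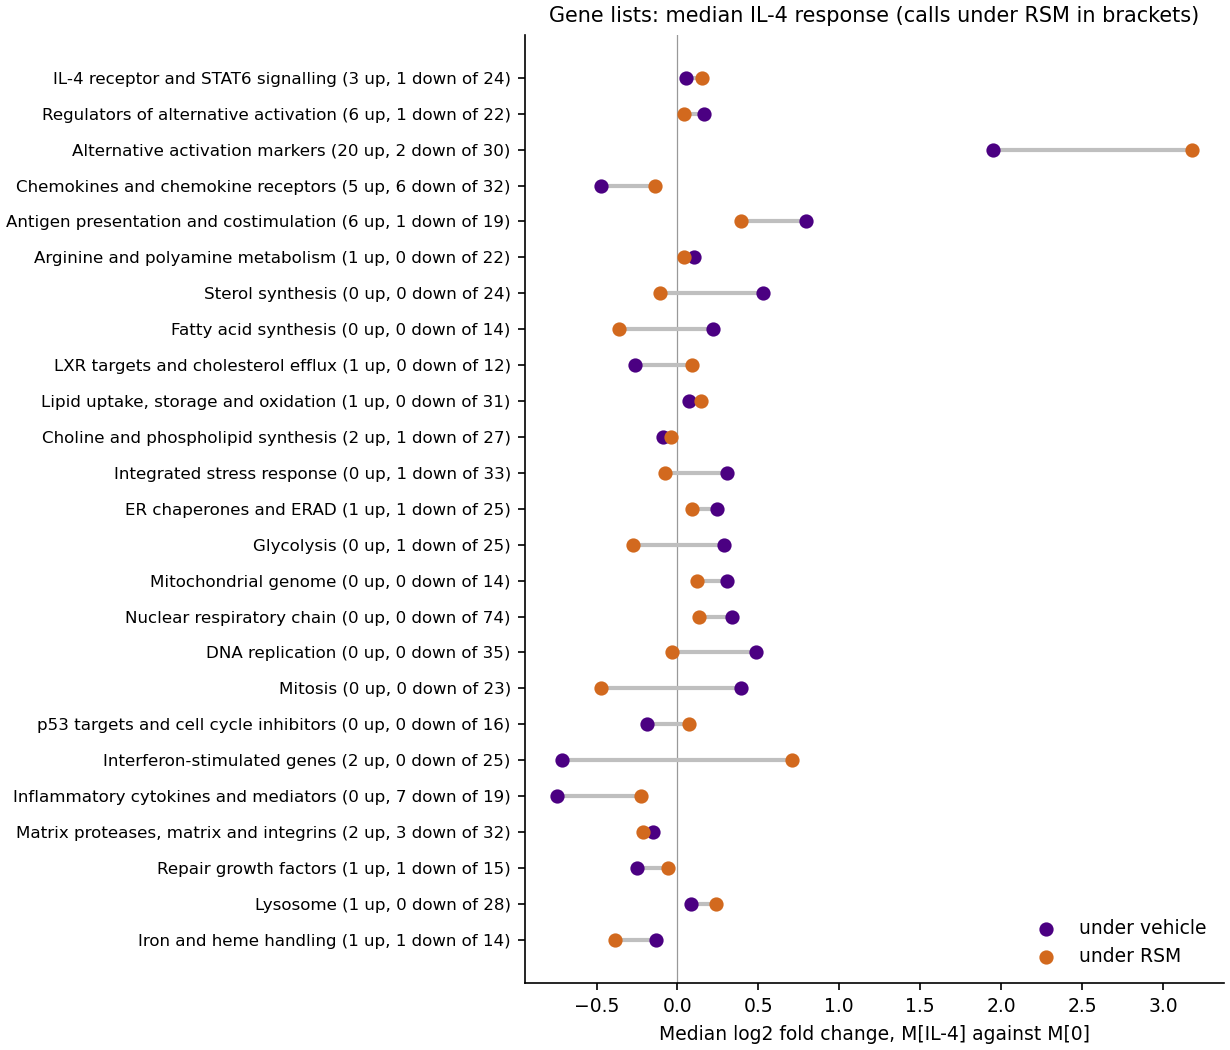
Median log2 fold change of each gene list with IL-4 under RSM and under vehicle, with the number of members called higher and lower under RSM. The markers of alternative activation stand at 3.18 under RSM and 1.95 under vehicle, while sterol synthesis (-0.109 and 0.527), mitosis (-0.472 and 0.392) and interferon-stimulated genes (0.707 and -0.713) have medians of opposite sign.

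Some of the largest rises were of genes outside these lists. Kcnd3, a potassium channel subunit, went from 0 counts to 15.0, 19.4 and 19.2 CPM under RSM, at least 326-fold, and to 4.68 to 9.75 CPM under vehicle. Rnase2a, a ribonuclease of the eosinophil-associated family, went from 0 counts to 4.58, 8.94 and 6.33 CPM, at least 121-fold, but to 49.4 to 79.8 CPM under vehicle. Scn3a, a sodium channel subunit, rose from 0 counts to 3.77, 6.14 and 6.17 CPM (at least 97.7-fold), Msx3 to 3.83 to 4.43 CPM (at least 75.9-fold) and Cldn11, a claudin, to 2.58 to 3.51 CPM (at least 55.0-fold). Cdh1, E-cadherin, rose from 1 count over the 3 M[0] libraries to 6.93, 6.84 and 7.08 CPM, a ratio of 382 with a 95% counting interval of 68.2 to 15100.

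The falls described next were among the largest of called genes with a mean of 50 or more counts in M[0] and a lower value in M[IL-4] in all 3 same-numbered pairs. Itga8, the α8 integrin, fell from 3.79, 5.33 and 3.18 CPM to 0.153, 0.377 and 0.639 CPM (log2 fold change -3.38 ± 0.41, FDR 5.95e-06). Pilra, an inhibitory receptor, fell from 4.62 to 5.71 CPM to 0.323 to 0.692 CPM (-3.26 ± 0.27), with an antisense gene over 15% of its exons. F13a1, coagulation factor XIII A, fell by 3.16 log2 units and Klra2, a lectin-like receptor, by 2.86, from 9.99 to 14.2 CPM to 1.18 to 2.14 CPM. Gzme, Smoc2, Best1, Fcrl1, Bank1 and Dnmt3l fell by 2.07 to 2.98 log2 units. In none of these did the M[0] and M[IL-4] libraries overlap, which their choice by call, direction and size makes likely and which adds no support.

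Opposite directions under RSM and under vehicle were called for 5 genes. Bmp2, a bone morphogenetic protein, rose from 2.56, 2.09 and 3.08 CPM to 8.10, 7.64 and 8.41 CPM under RSM (log2 fold change 1.64 ± 0.17, FDR 6.25e-07) and fell from 14.9, 16.1 and 14.8 CPM to 3.28, 4.70 and 5.21 CPM under vehicle (-1.79 ± 0.15, FDR 4.58e-08). Gng4, a G protein γ subunit, rose from 2.72, 3.71 and 2.62 CPM to 7.79, 11.1 and 8.04 CPM and fell under vehicle from 1.44 to 2.29 CPM to 0.448 to 0.646 CPM. Slc7a11 and Irf7 are described above. Diras2, a small GTPase, fell from 2.03, 3.03 and 2.26 CPM to 0.153, 0.269 and 0.426 CPM under RSM (-3.09 ± 0.43, FDR 3.58e-05), and its rise under vehicle (1.33 ± 0.45, FDR 0.0319) lost its call without vehicle M[0] replicate 1 or 3 or vehicle M[IL-4] replicate 2 or 3, at 0.94 to 1.32.

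Other interactions came from a response under vehicle that was not called under RSM. Selp, which encodes P-selectin, held 11.0, 12.7 and 8.98 CPM in M[0] and 10.3, 10.4 and 8.99 CPM in M[IL-4] under RSM (-0.14 ± 0.16, FDR 0.658), and rose from 0, 0 and 0.0538 CPM to 0.754, 0.755 and 0.560 CPM under vehicle (interaction -4.92, FDR 4.03e-05). Cd4, which some macrophages express, was at 0.462 to 0.533 CPM in M[0] and 0.426 to 0.700 CPM in M[IL-4] under RSM, and fell from 3.12 to 5.81 CPM to 0.464 to 0.646 CPM under vehicle (interaction 3.17, FDR 0.000374). Of the 10 lymphocyte markers, 2 passed the count filter over the 18 libraries, Cd4 among them, and Cd3e, Cd8a and Cd79a did not. The part of lymphocytes in the fall of Cd4 under vehicle was not tested. Nr4a1, a nuclear receptor chosen after its values were seen, had 10.9, 11.0 and 13.2 CPM in M[0] and 9.53, 7.05 and 7.77 CPM in M[IL-4] under RSM (-0.53 ± 0.23, FDR 0.143), and fell from 22.7 to 28.2 CPM to 2.44 to 6.41 CPM under vehicle (interaction 1.91, FDR 0.000866).

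**Figure D5:**
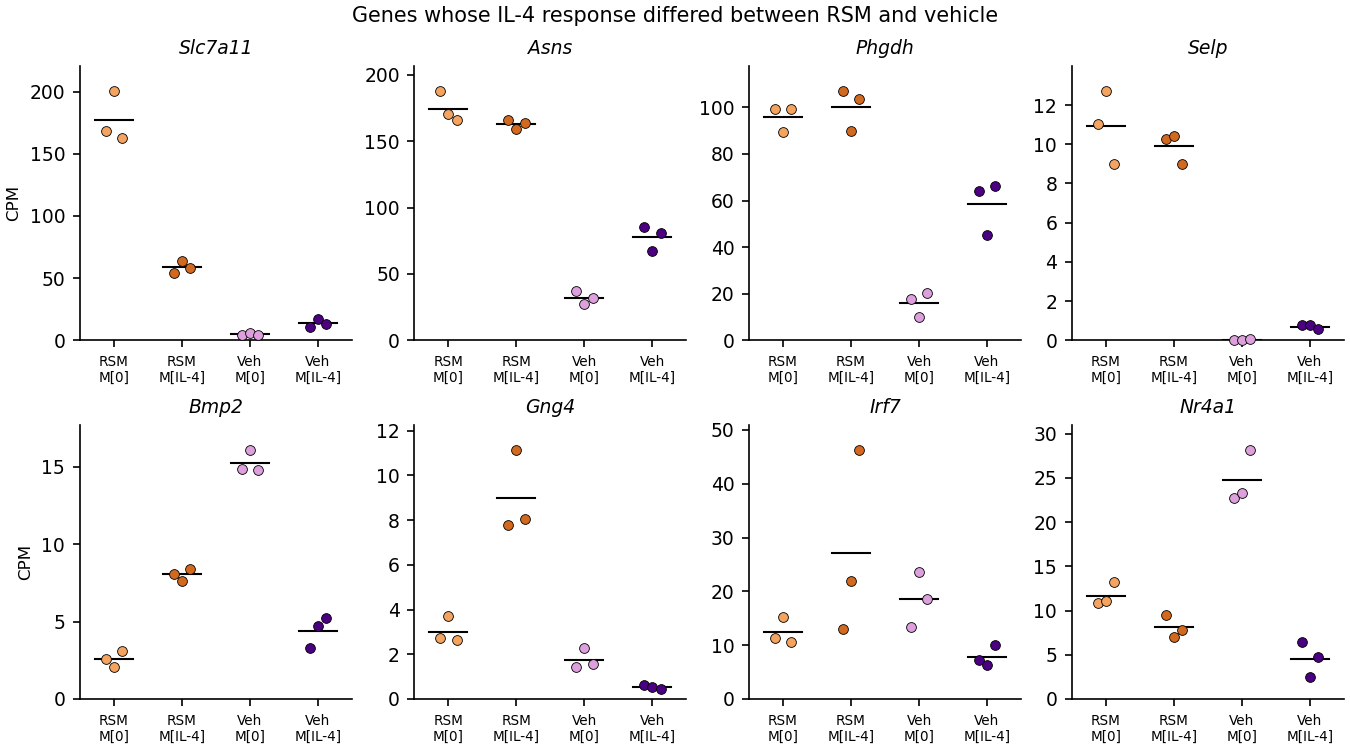
Levels in CPM, on linear axes, of 8 genes whose response to IL-4 differed between RSM and vehicle, in each library of RSM M[0], RSM M[IL-4], vehicle M[0] and vehicle M[IL-4], with points for libraries and a bar for the mean. Slc7a11 falls and Bmp2 and Gng4 rise under RSM against the direction under vehicle, Asns and Phgdh stay high under RSM, and 1 Irf7 library (46.3 CPM) stands above the others.

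HC3 limits choline before it enters the cell, and RSM after. IL-4 called 273 genes higher and 321 lower under HC3, of which 214 and 132 were also called under RSM, 78.4% and 41.1% of the HC3 lists and 58.3% and 48.7% of the RSM lists. The fold changes under the 2 inhibitors correlated across genes with a Pearson r of 0.74. The agents were given at 5 µM and 250 µM, so a difference between agents and one between doses cannot be told apart. The direct difference, RSM minus HC3, was called for 11 genes (0.0734%), all positive, with 950 genes at an unadjusted p under 0.05. Egr2 had the response under RSM described above and rose from a mean of 13.2 to 91.7 CPM under HC3, a difference of 1.33 log2 units (95% interval 1.01 to 1.66, FDR 0.000532). The differences of Itgax, Atp6v0d2, a subunit of the proton pump of fusing macrophages, and Nptx1, a pentraxin, were 2.10 (95% interval 1.62 to 2.57), 1.53 and 1.79 (1.30 to 2.28). These 4 kept their call when any RSM or HC3 library was left out. Arap2, Bmp2, Ccl7, Gm8989, Gng4, Itgb3 and Tbc1d4 did not in 1 or more of those fits, and the transcript of Gm8989 is shared whole with Gm8979. Same-numbered libraries of the treatments deviated together within M[0] and within M[IL-4], and with that block, added after the data were seen, 37 genes were called positive and 8 negative. For Mrc1, Slc40a1 and Cd14 the differences were -0.22 (-0.57 to 0.12), -0.11 (-0.43 to 0.22) and 0.11 (-0.14 to 0.37).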

How the data were processed

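RNA of 18 libraries was sequenced, and per the study's methods the authors used fastp for trimming, STAR for alignment to GRCm38, Picard to flag duplicates, which were kept, and featureCounts for counts over exons of each gene. Only confidently mapped read pairs were used, so genes with near-identical copies can be undercounted. The versions and the strand setting are not given in the sources used here, so a gene and its antisense partner cannot be told apart. The authors deposited raw counts per gene, with no normalization. Of 55385 gene IDs, 55144 matched a symbol in GENCODE M21.

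Groups followed the labels. Genes with 10 or more counts in 2 or more libraries entered 1 edgeR 4.0.16 fit (R 4.3.3) of all 6 groups with TMM scaling, and glmQLFTest contrasts were adjusted by the Benjamini-Hochberg method. The fit was tested on simulated data. The interaction subtracted the IL-4 response under vehicle (or HC3) from that under RSM. Errors of fold changes are SEs of the fit, and counting intervals and floors of 3 counts cover counting error only. Near-identical transcripts were found with blastn 2.17.0 (98% identity over 100 bp or more). Figures were drawn with matplotlib 3.10.9.

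Within a polarization, all 12 pairs of same-numbered RSM libraries and vehicle or HC3 libraries deviated together (correlation of deviations from group means 0.11 to 0.372), so numbers pair the treatments there. The main fit does not use that pairing. With a block inside each polarization, added after the data were seen, the interaction with vehicle called 240 positive and 176 negative genes, against 183 and 138. Without a fold threshold it called 1566 and 1339, against 757 and 620. The labels do not say what a number marks.

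The comparison, gene lists and tests were chosen with earlier results of these data known. Named genes were up to 8 called members a list by FDR, the defining members of each list whatever their test, the 12 largest rises and falls, the 8 largest interactions each way with 50 or more mean counts, the genes called in opposite directions and the 5 genes most like Retnla. All others are named as chosen after their values were seen, or by a count. Alternatives were DESeq2 1.42.0, other filters and scalings, fits of fewer groups, the replicate block, no fold threshold, no mitochondrial genes and leaving out each library. A few genes that the rule names are not reported here.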

Additional observations from a re-analysis of the deposited data

Results flagged for a closer look

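The test of the difference between the IL-4 responses, RSM minus vehicle, picked out 183 genes with a positive and 138 with a negative difference, and the same test against HC3 picked out 11. Every gene below was picked out by the test of RSM against vehicle, with differences given in log2 units.

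The positive differences with the largest size among genes of 50 or more mean counts were 5.81 for Gm8989, whose transcript is identical to part of Gm8979, 3.57 for Ksr2, a kinase scaffold, 3.43 for Bmp2, 3.42 for Ms4a4a, 3.33 for Serpina3g, a serine protease inhibitor, 3.26 for Gng4, 3.17 for Cd4 and 3.10 for Cd300e, an activating receptor of myeloid cells. The difference of Irf7, called in opposite directions, was 2.36. Ksr2 had 1 count over the 3 M[0] libraries under RSM and 5.76, 4.74 and 3.94 CPM in M[IL-4], and its difference was not called without RSM M[0] replicate 1 or 3 or vehicle M[0] replicate 2 (3.13 to 3.15). Serpina3g lost its call without RSM M[0] replicate 3 (2.79) and Cd300e without RSM M[IL-4] replicate 3 (2.97).

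The negative differences were -4.92 for Selp, -4.73 for Gm38575, -4.41 for Diras2, -3.12 for Slc7a11, -2.88 for Mboat2, a lysophospholipid acyltransferase, -2.43 for Cd24a, -2.36 for 5830415G21Rik, -2.34 for Hebp2, a heme-binding protein, and -2.28 for Adamts5, an aggrecanase. Mboat2 had 0.373, 0.471 and 0.924 CPM in M[0] and 1.12, 0.915 and 0.798 CPM in M[IL-4] under RSM (FDR 0.27, edgeR), and rose from 0.294 to 0.538 CPM to 4.59 to 6.10 CPM under vehicle. Cd24a fell from 9.76, 16.3 and 9.60 CPM to 2.19, 4.63 and 3.09 CPM under RSM and had 4.09 to 7.28 CPM in M[0] and 4.20 to 11.0 CPM in M[IL-4] under vehicle. Hebp2 rose under vehicle from 0.881 to 1.38 CPM to 5.44 to 8.29 CPM, with 1.35 to 2.02 CPM in M[IL-4] under RSM. The Gm38575 difference was not called without vehicle M[0] replicate 2 or 3 (-4.73 in both), nor that of Adamts5 without RSM M[0] replicate 1 (-1.99) or vehicle M[IL-4] replicate 3 (-2.06).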

How the results depend on the processing

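Without a fold threshold the calls were 1317 higher and 1009 lower under RSM, 2417 and 2232 under vehicle, 757 positive and 620 negative for the interaction and 26 and 2 for RSM against HC3. At the fold threshold, counts for RSM (328 to 402 higher, 206 to 307 lower), vehicle and the interaction stayed within 1.5 times their main value. No named gene that was called reversed its direction. For results that were not called, the direction was not followed. The difference of RSM from HC3 moved more: 26 positive and 6 negative under the replicate block, 37 and 8 where that block was set inside each polarization (added after the data were seen), 22 and 3 with DESeq2, 41 and 8 with no count filter, and 1 negative with library size only. Leaving out 1 RSM or HC3 library in turn gave 6 to 12 positive and 0 to 1 negative genes, with 6 without RSM M[0] replicate 1 or 3, and 17 and 1 were called without vehicle M[IL-4] replicate 2, which enters through the shared spread. DESeq2 called 359 higher and 272 lower under RSM, of which 613 were shared with the 638 main calls.

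Same-numbered M[0] and M[IL-4] libraries under RSM deviated together with correlations of 0.104, 0.278 and 0.0852. Differently numbered ones ran from -0.179 to 0.0861, the highest being M[0] replicate 3 with M[IL-4] replicate 1. These values do not settle whether the numbers pair this response, and the main fit does not use them. The replicate block gave 394 higher and 307 lower genes, and without a fold threshold 1598 and 1551. Scaling by library size alone moved the median fold change of all genes to -0.0595.

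Among named genes, 53 calls of the response under RSM were lost over all genes and alternatives and 2181 results kept their side of the threshold. For the interaction, 44 were lost and 25 gained. The fit of the interaction to 6 libraries was not run. Calls of genes under 3 counts in a group are limited by depth. The causes of these shifts were not tested.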

Other observations

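The genes whose levels followed Retnla most closely over the 18 libraries, by Pearson r of log2(CPM + 0.1), were Scn3a (0.989), Mcf2l (0.989), Rnase2a (0.988), Cldn11 (0.983) and Il31ra (0.981). The 18 libraries fall into naïve and polarized ones, so r largely reflects that split and is given as a description. Mcf2l had a log2 fold change of 2.33 with IL-4 under RSM and 3.78 under vehicle. Il31ra, a subunit of the IL-31 receptor, had 2 counts over the 3 M[0] libraries under RSM and 178 over the 3 M[IL-4] libraries, a ratio of 85.8 with a 95% counting interval of 23.4 to 714. Under vehicle it had 3 and 507 counts.

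Markers of mast cells, basophils and eosinophils were scarce under RSM. Their 5 tested members summed to 4.67 to 5.66 CPM in M[0] and 1.97 to 3.62 CPM in M[IL-4] under RSM, against 13.2 to 29.9 CPM in vehicle-treated M[IL-4]. Of these 5, 1 was called higher and 2 lower. Siglecf, a sialic acid-binding receptor of eosinophils, was called higher (log2 fold change 1.82, FDR 0.0443), and lost its call in both fits to fewer groups, with library size only and without RSM M[0] replicate 2 or 3 or any 1 of the RSM M[IL-4] libraries (1.41 to 1.95). Mcpt8, a basophil protease, fell under RSM from 1.07, 0.889 and 0.924 CPM to 0.153, 0.108 and 0.0532 CPM (edgeR FDR 0.000412), and Kit, the stem cell factor receptor, from 2.46 to 3.15 CPM to 0.592 to 1.58 CPM (FDR 0.00484). Dendritic cell markers, with 3 of 9 tested, summed to 1.23 to 1.78 CPM in M[0] and 2.85 to 4.95 CPM in M[IL-4] under RSM, against 22.1 to 30.3 CPM in vehicle-treated M[IL-4]. Of these 3, 1 had a fold change above 0 under RSM and 2 below, with a median log2 fold change of -0.123. The member above 0 was Batf3, a transcription factor and the only call. It rose from 0.267, 0.837 and 0.359 CPM to 3.16, 1.88 and 4.04 CPM (FDR 7.12e-05).

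Vegfc, a lymphatic growth factor, rose under RSM from 1.75 to 1.94 CPM to 5.53 to 8.56 CPM (log2 fold change 1.98 ± 0.25, FDR 1.13e-05, edgeR). Ptgs2, the inducible cyclooxygenase, fell from 57.7, 61.5 and 49.5 CPM to 25.7, 27.8 and 28.9 CPM (-1.03 ± 0.15, FDR 5.3e-05), a fold change at the threshold that was -0.96 without M[0] replicate 2 and -0.99 without M[IL-4] replicate 1.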
